A study of Mus musculus with 2 samples.

Results

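Matrix-high tumour cells were the top 10% of the keratin-positive cells of a mouse tumour pool, selected on the summed level of 7 genes for secreted matrix and matrix-associated proteins. Barcodes with at least 500 genes, under 15% mitochondrial unique molecular identifiers (UMIs), at least 3 UMIs of the keratin genes Krt8 and Krt18 together and 0 UMIs of Ptprc, the gene of the leukocyte antigen CD45, were taken as tumour cells. They numbered 5810 of the 8784 barcodes that passed the first pair of limits and of 9747 barcodes in all. The tumour cells were ranked by the summed CPM (UMIs of a gene relative to all gene UMIs of the cell, times 1000000) of Ogn, Postn, Wisp2, Igf1, Prelp, Dpt and 1500015O10Rik, and the top 10%, 581 cells, are called matrix-high tumour cells. The remaining 5229 are called other tumour cells.

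The cells came from tumours of mice whose strain the labels spell NGS mouse, in a study whose title concerns triple negative breast cancer and inhibition of ACSS2. The tumours of 3 samples treated with ACSS2i, an inhibitor of the enzyme that makes acetyl-CoA from acetate, and of 3 vehicle samples were pooled on 1 droplet lane, with 4000 to 6000 live cells from each. An expression library and a library of antibody tags, named U2, U3, U4 and D0, D1, D4, were read from that pool. No source used here gives the arm of a tag, so inhibitor and vehicle cells cannot be told apart and are not compared, and Bmal1 status, which the design text names, is given for no tag. Nor do the sources used here give the tumour model or the sex and age of the mice.

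The extracellular matrix is built from fibrillar collagens, from small leucine-rich proteoglycans that bind collagen fibrils, and from matricellular proteins that link the matrix to cell surface receptors. In a carcinoma most of it is usually laid down by stromal fibroblasts, but carcinoma cells with mesenchymal features can transcribe matrix genes themselves. Ogn (osteoglycin), Prelp and Dpt (dermatopontin) encode collagen-associated matrix proteins, Postn (periostin) and Wisp2 matricellular proteins, Igf1 insulin-like growth factor 1, and 1500015O10Rik a secreted peptide precursor also named Ecrg4.

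The matrix-high tumour cells held 13977516 UMIs, with a median of 22443 UMIs and 4269 genes per cell, and the other tumour cells 148335393 UMIs, with medians of 26188 UMIs and 4621 genes. The median mitochondrial share was 4.47% in matrix-high and 3.67% in other tumour cells. More than 1 tag was found on 7.57% of matrix-high and 9.79% of other tumour cells, and no tag on 33.9% and 31.7% of them. Cells of both kinds were kept in the summed values. Because the cells were chosen on expression in the same contrast, no test over tags was run, and the classes are set side by side within each tag as a description. Values below are CPM of summed UMIs, ratios are matrix-high over other tumour cells, and intervals are exact 95% intervals that cover counting error only. UMIs from 1 cell are not independent samples of the cells, so the intervals are narrower than the spread between animals.

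The limit is a rank in the summed level of the rule genes. The lowest matrix-high cells had summed rule gene levels of 1684.8 and 1681.44 CPM, and the highest of the other tumour cells 1676.97 and 1676.45 CPM. Of the matrix-high cells 93 (16%), and of the other tumour cells 122 (2.33%), lay within 10% of the limit. The highest cell reached 15261 CPM, while 743 tumour cells (12.8%) held no UMI of any rule gene.

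The cells were chosen by the 7 rule genes, whose values are given as a description. Ogn was the most abundant rule gene in 81 matrix-high cells (13.9%), 1500015O10Rik in 27, Wisp2 in 19, Prelp in 17 and Igf1 in 1. Periostin carried most of the score and was the most abundant rule gene in 436 matrix-high cells (75%). It made up 54.0% of the rule gene UMIs of matrix-high cells. UMIs of 4 or more of the 7 genes were held by 515 of 581 matrix-high cells, and of only 1 by 3. Of the other tumour cells 15.8% held 4 of the genes, 8.62% held 5, 2.77% held 6 and 0.593% held all 7. Holding a UMI of a gene does not show how much that gene added to the score. Rule genes made up a median of 0.243% of the UMIs of a matrix-high cell.

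Ogn (ENSMUSG00000021390, chromosome 13, 49608046 to 49624501, plus strand; spans here are of whole genes in GRCm38) was 447 CPM in matrix-high and 71.1 CPM in other tumour cells. Per tag it had a lowest value of 369, a median of 549 and a highest of 588 CPM in matrix-high cells, against 53.0, 80.3 and 107 CPM in other tumour cells. The lowest value in both was that of tag D1, and the 2 ranges did not overlap. Postn (ENSMUSG00000027750, chromosome 3, 54361109 to 54391037, plus strand) was 1527 CPM in matrix-high and 175 CPM in other tumour cells. Its lowest, median and highest values per tag were 1244, 1405 and 1833 CPM in matrix-high cells, against 142, 171 and 240 CPM in other tumour cells. These ranges did not overlap either, and tag D4 was highest in matrix-high cells and tag U3 in other tumour cells.

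Of the other rule genes, Wisp2 was 206 CPM in matrix-high and 29.2 CPM in other tumour cells, Igf1 91.3 and 6.16, Prelp 335 and 104, Dpt 75.2 and 16.9, and 1500015O10Rik 144 and 6.55. For Wisp2 tag D1 was highest in both classes, with 288 CPM in matrix-high and 32.0 CPM in other tumour cells, and D4 was lowest in matrix-high cells, with 71.0 CPM, still above every tag of the other tumour cells. Dpt was the 1 rule gene whose ranges met: D0, with 16 matrix-high cells, had 20.4 CPM there, and the other tumour cells of U2 had 20.5 CPM. When a rule gene was taken out of the score and the top 10% chosen again with the other 6, that gene was still higher in the cells so chosen in 5 of 5 tags, and its ratio was 2.78 for Prelp, 3.94 for Dpt, 4.10 for Ogn, 4.65 for Postn, 5.37 for Wisp2, 9.0 for 1500015O10Rik and 12.4 for Igf1. Without Postn 68.2% of the matrix-high cells were chosen again, and without any 1 of the other rule genes 87.3% to 97.4%. The 7 genes were chosen together with earlier results of these data known. These ratios are thus a description and no independent support.

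**Figure D1:**
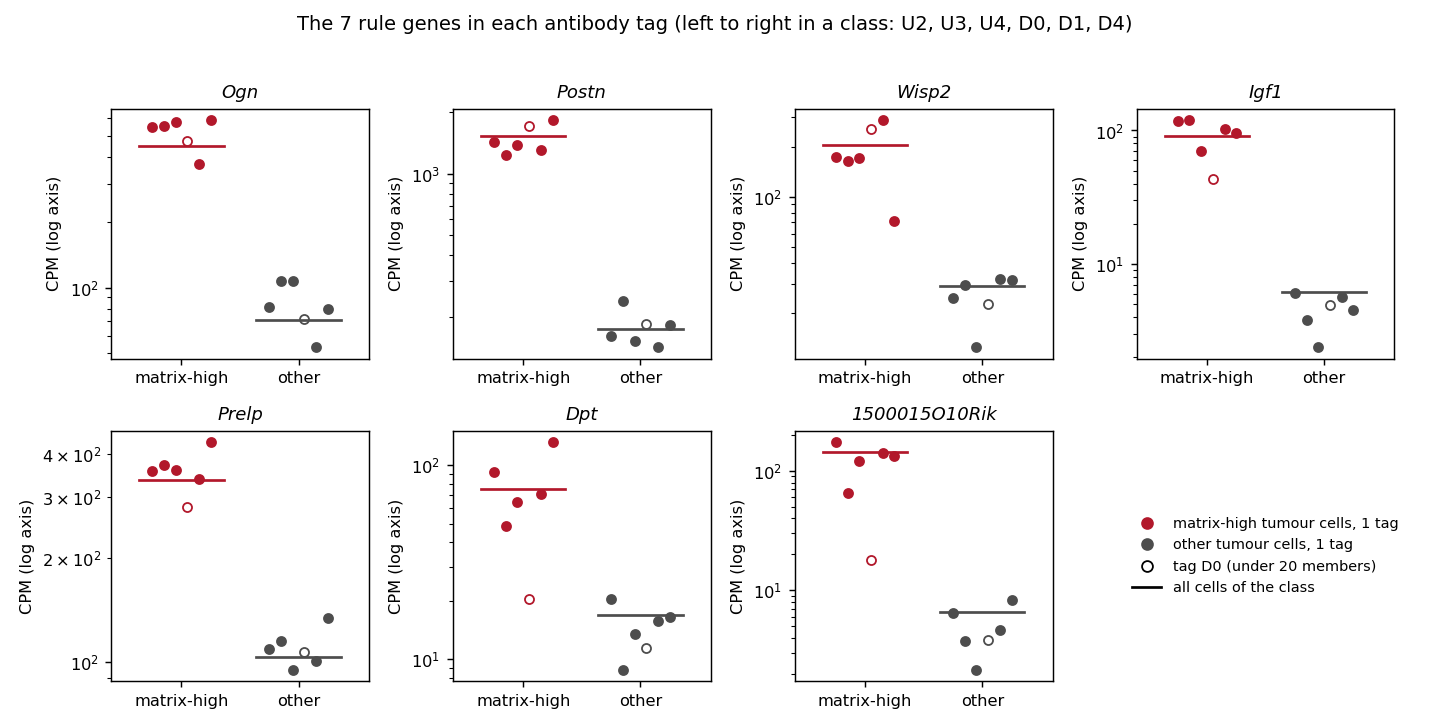
CPM (log axis) of each of the 7 rule genes, in matrix-high tumour cells (left, red) and other tumour cells (right, grey); points are the 6 antibody tags, open for D0 with 16 matrix-high cells, and lines are all cells of the class. Ogn lies between 369 and 588 CPM in the tags of matrix-high cells and between 53.0 and 107 CPM in those of other tumour cells, and only for Dpt do the tags of both classes meet.

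The 300 bases around the gene starts of Ogn and of its neighbours Omd and Aspn (250 before and 50 after the start, RefSeq, GRCm38.p6) are shown because these genes lie side by side on chromosome 13 and all had higher values in matrix-high cells. Capitals mark TATAAA on either strand, the letters of a TATA box, and GGAATG on either strand, letters that TEAD factors bind. All are on the plus strand, 5′ to 3′, at chr13:49607765-49608064 for Ogn, chr13:49582212-49582511 for Omd and chr13:49544193-49544492 for Aspn.
Ogn: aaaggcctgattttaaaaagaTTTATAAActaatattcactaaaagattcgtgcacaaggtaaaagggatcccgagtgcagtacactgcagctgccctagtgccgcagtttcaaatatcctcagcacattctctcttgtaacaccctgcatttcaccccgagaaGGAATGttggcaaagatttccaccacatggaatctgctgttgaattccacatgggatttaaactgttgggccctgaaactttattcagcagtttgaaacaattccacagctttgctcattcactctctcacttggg
Omd: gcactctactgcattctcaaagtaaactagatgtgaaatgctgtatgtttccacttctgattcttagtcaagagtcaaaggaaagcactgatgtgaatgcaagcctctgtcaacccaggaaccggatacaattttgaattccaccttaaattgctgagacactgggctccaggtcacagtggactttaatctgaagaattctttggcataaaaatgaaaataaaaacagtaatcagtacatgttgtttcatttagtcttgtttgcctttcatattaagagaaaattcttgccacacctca
Aspn: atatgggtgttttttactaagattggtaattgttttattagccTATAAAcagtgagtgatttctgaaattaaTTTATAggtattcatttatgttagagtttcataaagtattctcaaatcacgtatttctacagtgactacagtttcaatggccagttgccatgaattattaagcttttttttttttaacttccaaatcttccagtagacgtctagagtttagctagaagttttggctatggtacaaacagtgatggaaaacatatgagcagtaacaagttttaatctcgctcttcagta
The Ogn window held 1 GGAATG and 2 overlapping TATAAA matches on opposite strands, the Aspn window 2 TATAAA matches, 1 on each strand, and the Omd window neither. Of 32851 RefSeq promoter windows of the same length, 14.7% held GGAATG and 13.6% held TATAAA on either strand, so such matches are common and are a description of the letters only.

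On that stretch of chromosome 13 the order on the plus strand is Ecm2, Aspn, Omd and Ogn, all genes of small leucine-rich proteoglycans or relatives, and the span of Cenpp, a centromere protein gene on the minus strand, covers them. Aspn (asporin) was 26.1 CPM in matrix-high and 4.29 CPM in other tumour cells, a ratio of 6.09. Omd (osteomodulin) was 15.2 and 2.25 CPM, a ratio of 6.77, close to the 6.28 of Ogn. Ecm2 had a ratio of 2.45 from 36 UMIs in matrix-high cells, was higher in 4 of 5 tags and was not called. The next genes past the cluster, Nol8 and Iars, had ratios of 0.876 and 0.805, so the higher values did not extend to them. Per tag Omd ran from 12.2 to 18.1 CPM in matrix-high cells, against 1.79 to 3.15 CPM in other tumour cells, with no overlap. Aspn ran from 5.10 CPM (D0) to 58.3 CPM (D4), against 1.09 to 10.7 CPM, and its ranges overlapped.

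Outside the rule, 11436 genes with at least 100 UMIs over all tumour cells were compared. A gene was called higher with a ratio of at least 2 and a higher value in each of the 5 tags with at least 20 matrix-high cells, and lower with a ratio of at most 0.5 and a lower value in each of them. By that rule 165 genes (1.44%) were called higher and 202 (1.77%) lower. These shares are the background for the counts of each gene list below. By the ratio alone 277 (2.42%) and 443 (3.87%) passed. The median log2 ratio over all genes was -0.07. Without the cells tagged U3, 421 genes were called lower and 197 higher, so that 1 tag sets much of the lower count.

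**Figure D2:**
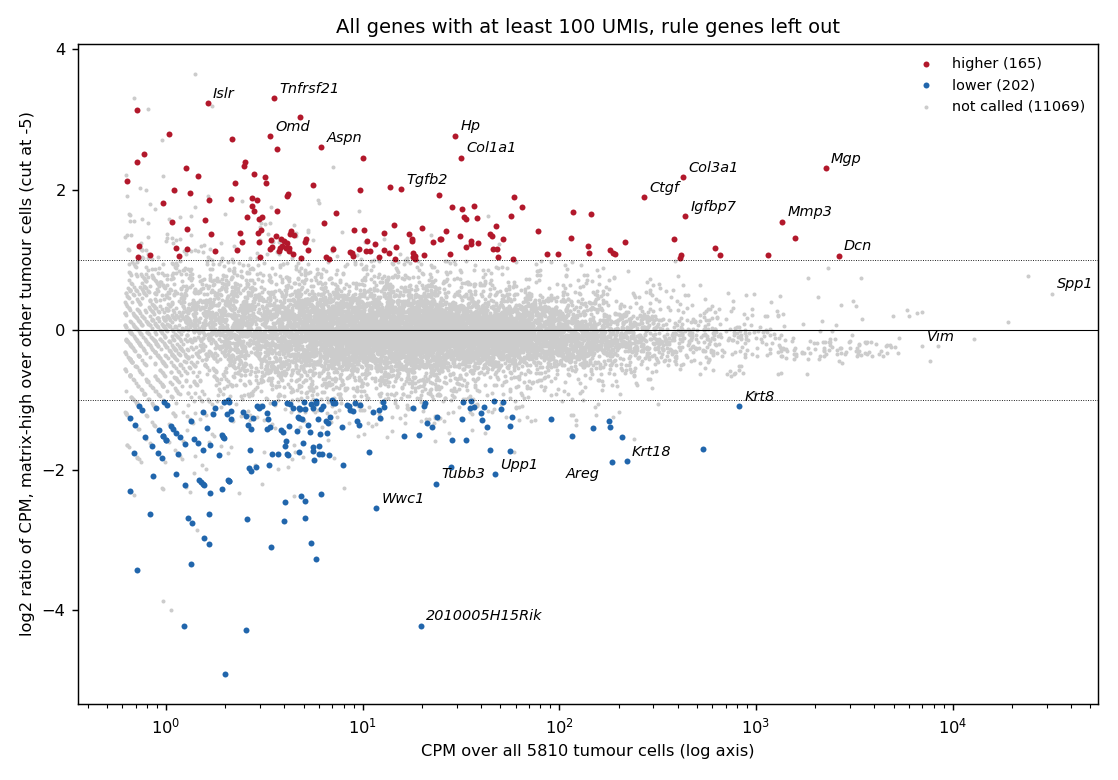
log2 ratio of CPM, matrix-high over other tumour cells, against CPM over all 5810 tumour cells (log axis), for the 11436 genes compared; red genes were called higher (165), blue genes lower (202) and grey genes neither. Mgp, Col3a1 and Ctgf stand high at large CPM, Krt8 and Krt18 stand low, and Spp1 and Vim, among the most abundant genes, lie within a ratio of 2.

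Matrix genes that were not in the rule were higher as a group. The 52 such genes in the lists of proteoglycans, interstitial collagens, and elastic fibre and matricellular proteins, low ones included, summed to 26440 CPM in matrix-high and 11009 CPM in other tumour cells, a ratio of 2.40 (2.39 to 2.41). The ratio was 1.94 without Mgp, the most abundant of them. Per tag it was 2.49 in U2, 1.92 in U3, 2.58 in U4, 2.36 in D0, 2.62 in D1 and 2.60 in D4. All 6 tags were above 1, and U3 was the lowest. The cells were chosen on other matrix genes and the lists with earlier results of these data known. This sum and the matrix list counts below are thus a description and no independent support.

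Of 6 small leucine-rich proteoglycans compared, 4 were called higher and none lower, against 1.44% and 1.77% of all genes, and their median ratio was 2.40. Dcn (decorin, which binds collagen fibrils and TGF-beta) was abundant in both classes, at 4992 CPM in matrix-high and 2404 CPM in other tumour cells, a ratio of 2.08. Its lowest, median and highest values per tag were 3098, 5105 and 5334 CPM in matrix-high cells, against 1843, 2059 and 2557 CPM in other tumour cells. Matrix-high cells of U3 were the lowest of their class, and the ranges did not overlap. Bgn (biglycan) was 81.1 and 34.4 CPM, with overlapping ranges per tag, and Aspn and Omd, described above, were the other members called.

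Of 12 interstitial collagen genes 5 were called higher and none lower, with a median ratio of 2.37. Col3a1 (type III collagen, ENSMUSG00000026043, chromosome 1, 45311538 to 45349706, plus strand) was 1472 CPM in matrix-high and 327 CPM in other tumour cells, a ratio of 4.51. Its lowest, median and highest values per tag were 1060, 1464 and 1651 CPM in matrix-high cells, against 228, 299 and 352 CPM in other tumour cells. U3 was again lowest among matrix-high cells, and the ranges did not overlap. Col8a1 (a short-chain collagen) was 841 and 341 CPM, Col12a1 (a fibril-associated collagen) 147 and 48.0, and Col6a2 (a chain of microfibrillar type VI collagen) 288 and 126. Col1a1, a chain of type I collagen, was 125 and 22.8 CPM, but it was uneven: the 59 matrix-high cells with the most held 84.2% of its UMIs, and tag U4 reached 374 CPM. The partner chain Col1a2 was seen in 22 matrix-high cells (3.79%) and in 240 other tumour cells (4.59%), and 5 cells held 93.0% of its 242 UMIs in matrix-high cells. Col6a1 had a ratio of 1.97 and was not called.

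Among 18 elastic fibre and matricellular genes, 6 were called higher and none lower, with a median ratio of 1.77. Mgp (matrix Gla protein, an inhibitor of calcification) was 8333 CPM in matrix-high and 1686 CPM in other tumour cells, a ratio of 4.94. Its lowest, median and highest values per tag were 5735, 7163 and 10351 CPM in matrix-high cells, against 975, 1520 and 2117 CPM in other tumour cells. Its matrix-high value was lowest in U3, highest in U2, and the ranges of the classes did not overlap. Ctgf, a matricellular protein gene that YAP and TGF-beta signalling are known to induce, was 805 and 217 CPM, a ratio of 3.71, from 547 to 1054 CPM per tag in matrix-high cells against 176 to 254 CPM in other tumour cells. Thbs1 (thrombospondin 1, which can activate latent TGF-beta) was 177 and 47.6 CPM, with no overlap of the tags. Emilin1 was 54.2 and 22.0 CPM, Wisp1 75.9 and 31.7, and Fbln1 (fibulin 1) 19.5 and 6.14. Fn1 (fibronectin), at 5424 CPM in matrix-high and 3245 CPM in other tumour cells, had a ratio of 1.67 and was not called, although its tags did not overlap.

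Enzymes that finish collagen differed less. Of 17 collagen processing and crosslinking genes 1, Adamts2 (a procollagen peptidase), was called higher, at 113 CPM in matrix-high and 46.1 CPM in other tumour cells, and none lower. The median ratio was 1.31, with Lox (lysyl oxidase) at 628 and 404 CPM and Sparc at 2914 and 1743 CPM. None of 9 basement membrane genes was called in either direction, and their median ratio was 1.42. Of 14 matrix proteases and inhibitors, 4 were called higher and 1 lower. Mmp3 (stromelysin 1) was 3369 CPM in matrix-high and 1160 CPM in other tumour cells, with 2304 to 4635 CPM per tag against 690 to 1348 CPM. Mmp2 (gelatinase A) was 79.6 and 23.6 CPM, Adamts5 (an aggrecanase) 101 and 39.1, and Mmp19 34.3 and 17.0, while Mmp9 (gelatinase B) was 0.787 and 3.05 CPM and was called lower.

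Growth factor pathway lists held 1 or 2 called genes each, against 1.44% of all genes called higher and 1.77% lower. Their summed ratios were 1.71 (IGF), 1.55 (Wnt) and 1.30 (TGF-beta and BMP), each above 1 in 5 of 5 tags. In the IGF list 1 of 9 genes was called higher and none lower: Igfbp7, whose product binds insulin-like growth factors, was 1133 CPM in matrix-high and 368 CPM in other tumour cells, from 768 to 1337 CPM per tag against 282 to 434 CPM. The list's median ratio was 1.23, and Igfbp4, its most abundant member, was 1149 and 935 CPM and not called. Of 10 Wnt genes 2 were called higher and none lower, with a median ratio of 1.30. These were Sfrp1, a secreted Wnt antagonist, with 74.3 and 31.9 CPM, and Axin2, a target of Wnt signalling. Axin2 had 2.15 and 0.492 CPM, from 30 UMIs in matrix-high cells. It passed the UMI minimum for comparison narrowly, and only through its higher level in matrix-high cells. At the level of the other tumour cells it would not have been compared, so its call adds little to the Wnt count. Of 18 TGF-beta and BMP genes 1, the ligand gene Tgfb2, was called higher (49.7 and 12.4 CPM, a ratio of 4.02) and none lower, and the median ratio was 1.17.

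**Figure D3:**
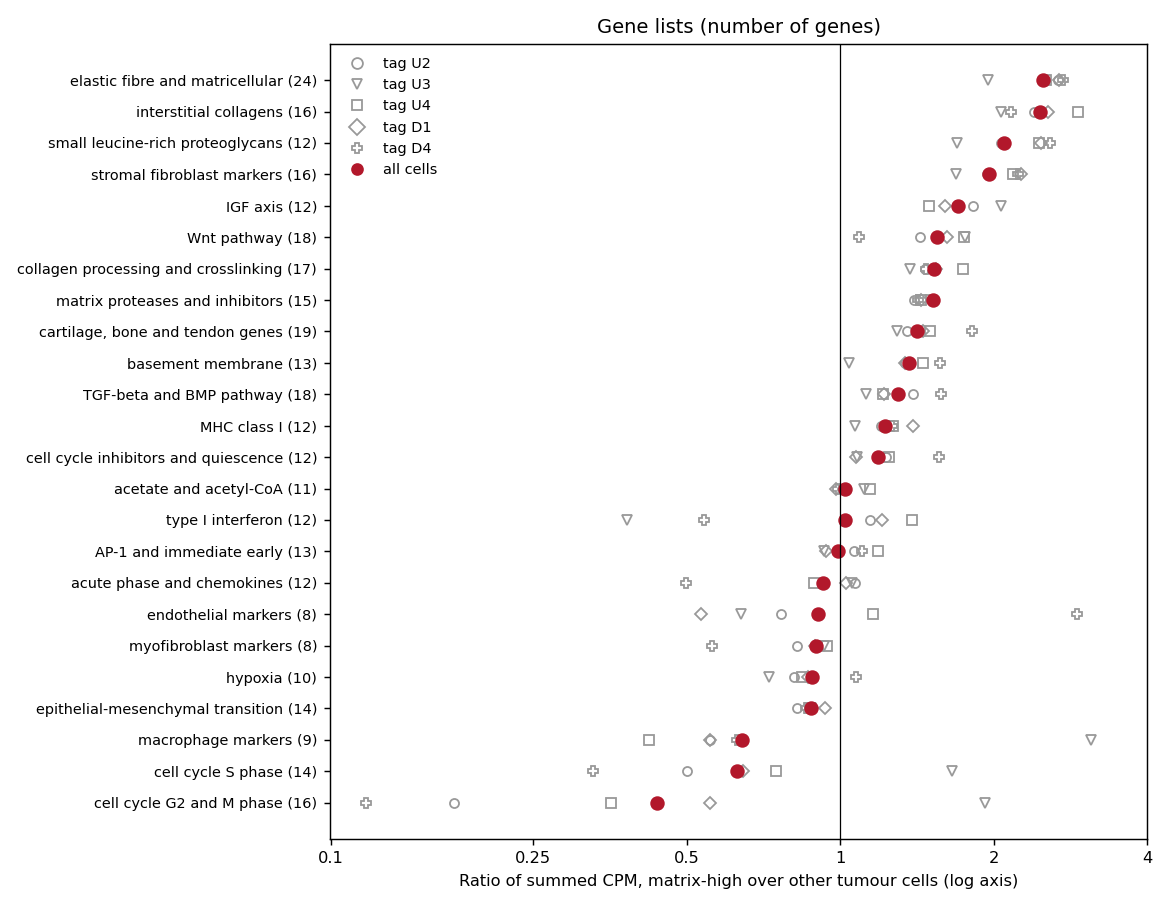
Ratio of summed CPM, matrix-high over other tumour cells (log axis), for each gene list with at least 4 genes compared; filled red points are all cells and open grey symbols the 5 tags with at least 20 matrix-high cells, and the number after each list is its genes in the matrix. The matrix lists lie to the right of 1 in each of these tags, and tag U3 lies far to the right of the other tags for the cell cycle lists.

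Genes with the largest ratios outside the rule included more secreted and surface proteins. Tnfrsf21 (death receptor 6) was 19.7 CPM in matrix-high and 2.0 CPM in other tumour cells, the highest ratio at 9.86. Islr, a leucine-rich repeat protein gene, was 8.87 and 0.944 CPM, Ccdc80, a matrix protein gene, 24.2 and 2.95, and Hp (haptoglobin, a plasma protein that binds haemoglobin) 133 and 19.6. The 15 genes named by the size of their ratio were completed by Omd, Cadps (6.60), Aspn, Itgbl1 (5.98), Col1a1 (5.48), F13a1 (5.45, a chain of coagulation factor XIII), Angpt4 (5.25, an angiopoietin), Clec3b (5.06, tetranectin), Mgp, Fbln7 (4.67, a fibulin) and Gxylt2 (4.53). Several of them came from a small share of the cells. The 59 matrix-high cells with the most UMIs of each held 88.9% of those of Cadps, 87.8% of Clec3b, 84.9% of Hp and 83.9% of F13a1. Their share was 37.9% for Mgp and 34.5% for Ctgf, genes seen in most of the 581 cells.

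Keratin genes were lower, although all cells had passed the keratin minimum. Krt8 was 401 CPM in matrix-high and 856 CPM in other tumour cells, a ratio of 0.469, and Krt18 63.7 and 235 CPM, a ratio of 0.272. The lowest, median and highest values of Krt8 per tag were 344, 384 and 450 CPM in matrix-high cells, against 764, 836 and 909 CPM in other tumour cells. The median cell had 7 UMIs of both keratin genes together in matrix-high and 21 in other tumour cells, so matrix-high cells lay nearer the gate. With a keratin minimum of 10 UMIs and the top 10% chosen again, 415 cells were matrix-high, 220 of them among the 581, and 122 genes were called higher, of which 88 were among the 165.

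Other genes called lower, Hmga2 apart, are named here for the size of their ratio and stand for no group. Areg (amphiregulin, a ligand of the EGF receptor) was 53.7 CPM in matrix-high and 199 CPM in other tumour cells, from 15.6 (U3) to 63.6 CPM per tag against 86.6 to 222 CPM, with no overlap. Hmga2, a chromatin protein gene active in embryos and many tumours and chosen after its value was seen, was 174 and 569 CPM. The lowest ratio was that of 2010005H15Rik, a gene of unstated role here, with 1.14 and 21.4 CPM. Also among the 10 lowest were Wwc1 (a regulator of the Hippo pathway, 2.15 and 12.5 CPM), Tubb3 (a beta tubulin, 5.51 and 25.3), Upp1 (uridine phosphorylase, 12.02 and 50.2), Fam19a5 (ratio 0.257), Inpp4b (0.261), Dusp9 (0.290) and Hao1 (0.299). Spp1 (osteopontin), the most abundant of the genes named, was 43834 CPM in matrix-high and 30667 CPM in other tumour cells, Vim (vimentin) 5966 and 7036, and the transcription factor gene Sox9 684 and 759, and none of these was called.

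Along the whole range of the rule score the levels changed by degrees. Over deciles of the tumour cells by that score, Mgp was 116 CPM in decile 1, 5149 CPM in decile 9 and 8333 CPM in decile 10, which is the matrix-high cells. Col3a1 was 25 CPM, 915 CPM and 1472 CPM in the same deciles, and Krt8 1153, 542 and 401 CPM. Spp1 was 11639 CPM in decile 1, 46017 CPM in decile 9 and 43834 CPM in decile 10, so its highest value lay below the top. The genes followed over deciles were chosen after values were seen, and the 743 cells without a rule gene UMI fill decile 1 and part of decile 2 in an order that the score does not set.

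**Figure D4:**
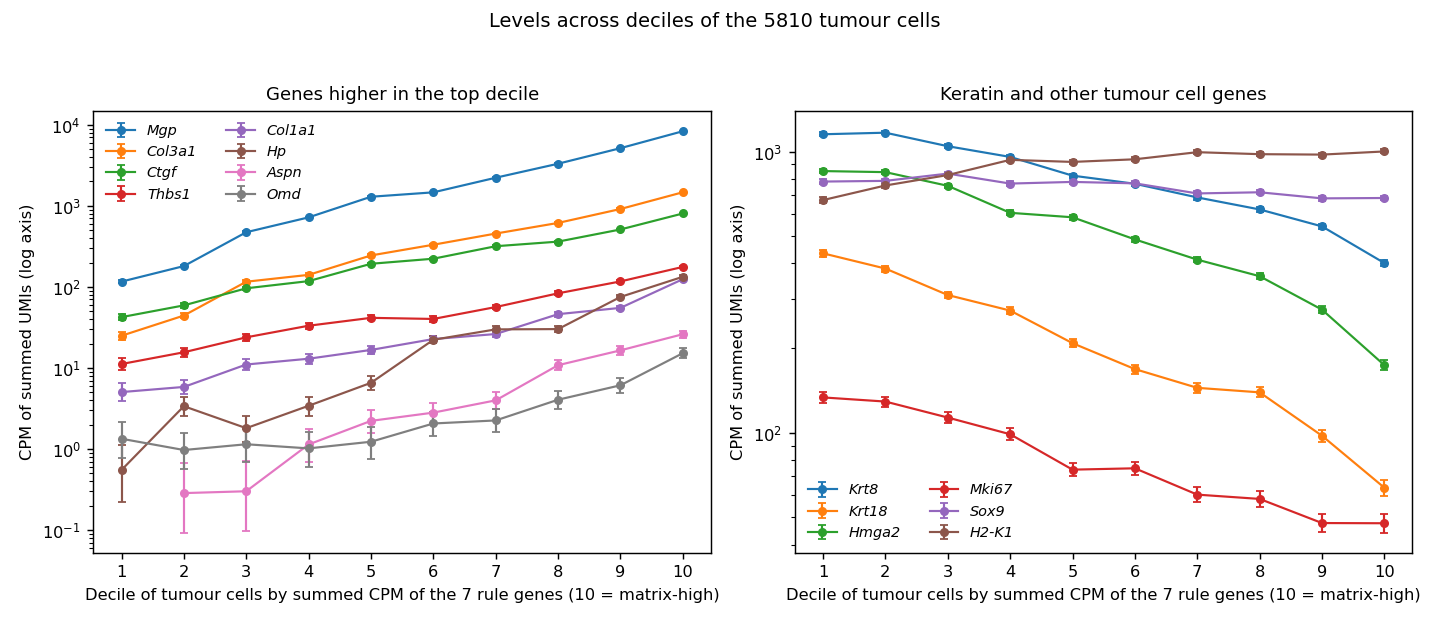
CPM of summed UMIs (log axis) in each decile of the 5810 tumour cells by summed CPM of the 7 rule genes, decile 10 being the matrix-high cells; bars are exact 95% Poisson intervals and a level of 0 is not drawn. Mgp is 116 CPM in decile 1 and 8333 CPM in decile 10, while Krt8 is 1153 CPM in decile 1 and 401 CPM in decile 10.

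Cell cycle genes were lower on the whole but not in each tag. The 16 genes of the G2 and M phases summed to 774 CPM in matrix-high and 1772 CPM in other tumour cells, a ratio of 0.437, and 15 of them had a ratio of at most 0.5, yet none was called because U3 went the other way. The summed ratio was 0.174 in U2, 1.93 in U3, 0.354 in U4, 0.110 in D0, 0.555 in D1 and 0.117 in D4. Few cells carried most of these UMIs in each tag: the 5 matrix-high cells with the most held 92.5% in U3, 89.2% in U4, 81.4% in D0, 72.6% in D4, 69.5% in D1 and 62.1% in U2. After each cell was thinned to 3000 UMIs, at least 3 G2 and M phase UMIs were found in 11.2% (8.74 to 14.0) of matrix-high and 31.3% (30.1 to 32.6) of other tumour cells, and unthinned in 41.8% and 69.2%. In U3 the thinned shares were 28.0% (12.1 to 49.4) and 25.4% (18.1 to 33.9), which do not differ beyond their intervals. The 14 S phase genes had a summed ratio of 0.627, with none called in either direction. Of 11 cell cycle inhibitor and quiescence genes 1, Gas1, was called higher (771 and 379 CPM) and 1, Cdkn1a (the inhibitor p21), lower (26.3 and 53.8 CPM).

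Several lists showed no called gene. With 1.44% of all genes called higher and 1.77% lower, lists this short can hold none. Their lack of calls is thus near the background and no result about these genes. None of 14 genes of epithelial-mesenchymal transition was called. Their median ratio was 1.003, while their summed ratio, in which abundant genes weigh most, was 0.877. The summed ratio was below 1 in each of the 5 tags compared, from 0.824 to 0.935. None was called among 9 hypoxia genes (summed ratio 0.878), 12 MHC class I genes (1.22) or 12 type I interferon genes (1.02). The same held for 13 AP-1 and immediate early genes (0.991) and 9 genes of acetate and acetyl-CoA (1.02). The summed MHC class I ratio was above 1 in each of the 5 tags compared, from 1.07 to 1.39. The median ratio of its 12 genes was 1.02, so the sum reflects its abundant members more than the list as a whole. The hypoxia, interferon, AP-1 and acetate lists had tags on both sides of 1. Acss2, the enzyme the inhibitor is aimed at, was 3.58 CPM in matrix-high and 1.76 CPM in other tumour cells, a ratio of 2.03 (1.47 to 2.76) from 50 UMIs in matrix-high cells, higher in 4 of 5 tags and not called. Of 10 cartilage, bone and tendon genes 1, Acan (aggrecan), was called lower (1.29 and 3.43 CPM) and none higher. Of 11 acute phase and chemokine genes 1, Hp, was called higher and none lower.

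The labelled likeness to fibroblasts held for some markers and not for others. Of 16 stromal fibroblast markers 9 could be compared, and 4 were called higher and none lower: Dcn, Cxcl12 (a chemokine, 365 CPM in matrix-high and 170 CPM in other tumour cells), Pdgfrb (a PDGF receptor, 101 and 40.2) and Clec3b (9.37 and 1.85). Clec3b was seen in only 75 matrix-high cells (12.9%). Its ranges per tag overlapped, with 2.55 to 17.1 CPM in matrix-high cells against 0.631 to 8.97 CPM in other tumour cells. Other markers of the list were absent or nearly so in matrix-high cells, which held 0 UMIs of Fap, Dpp4, Col14a1 and Tcf21, 4 of Thy1, 4 of Cd34 and 30 of Lum, the last at 2.15 CPM in matrix-high and 0.371 CPM in other tumour cells. Pdgfra was 20.1 and 12.5 CPM, a ratio of 1.61, and not called. The 8 myofibroblast markers summed to a ratio of 0.894 with none called. As the markers were divided, the cells are called matrix-high tumour cells here and are given no fibroblast name.

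Epithelial genes other than the gate keratins were nearly absent as well: 11 of 16, the cadherin gene Cdh1 among them, were at 0 in matrix-high cells, and the whole list held 65 UMIs, 60 of them of Krt14 in 4 cells and 1 of Epcam. Markers of other cells were low. Of 7 macrophage markers compared 1, C1qc, was called lower, and of 4 endothelial markers and 1 marker of T and NK cells none was called. Summed macrophage markers were 19.8 CPM in matrix-high and 30.9 CPM in other tumour cells, T and NK cell markers 1.93 and 2.98 CPM, endothelial markers 14.3 and 15.8 CPM, and pericyte markers held 13 UMIs in matrix-high cells. In U3 the macrophage ratio was 3.1, above those of the other tags compared.

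A set of keratin-free barcodes was taken for comparison after values had been seen, on Col1a2: 63 barcodes with at least 3 Col1a2 UMIs and none of Krt8, Krt18 or Ptprc, with a median of 7230 UMIs, 41 of them untagged. The matrix-high cells were chosen on the rule genes and these barcodes were not, so the values of those genes are a description. Ogn was 447 CPM in matrix-high cells and 61.6 CPM in these barcodes, near the 71.1 CPM of other tumour cells, Prelp was 335 and 63.8 CPM and Wisp2 206 and 65.9 CPM. Mgp, outside the rule, was 8333 CPM in matrix-high cells and 1677 CPM in these barcodes, where other tumour cells had 1686 CPM. Omd, at 15.2 CPM, had 0 UMIs there, which allows up to 6.38 CPM. The proteoglycan genes were divided. Dcn was 4992 CPM in matrix-high cells and 2149 CPM in these barcodes, but Aspn was 26.1 and 500 CPM and Bgn 81.1 and 3799 CPM. The other rule genes were lower in matrix-high cells than in these barcodes, with Postn at 1527 and 6177 CPM, Igf1 at 91.3 and 293 CPM, Dpt at 75.2 and 202 CPM and 1500015O10Rik at 144 and 376 CPM. So were the fibrillar collagens, with Col3a1 at 1472 and 17480 CPM and Col1a1 at 125 and 16619 CPM. These barcodes were chosen on Col1a2, itself a fibrillar collagen gene. Their high collagen values are therefore in part set by the choice and are a description. Of the fibroblast markers near 0 in matrix-high cells, Lum was 776 CPM and Thy1 383 CPM in these barcodes, while Tcf21 had 0 UMIs and Dpp4 5 UMIs there too. Spp1 (43834 and 6724 CPM) and Sox9 (684 and 61.6 CPM) were on the side of the tumour cells. The wider set of 191 barcodes with Dcn, Lum or Pdgfra and no keratin held Spp1 near tumour cell levels and was not used further.

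**Figure D5:**
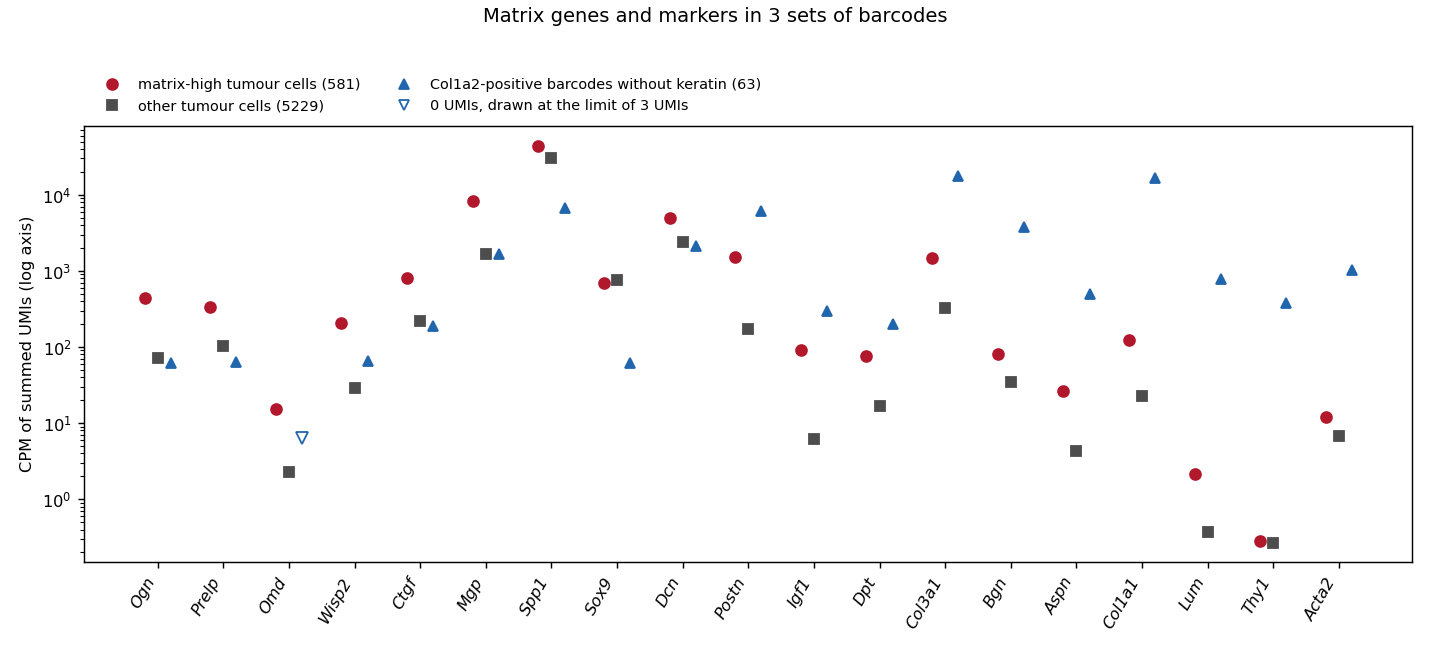
CPM of summed UMIs (log axis) of 19 genes in matrix-high tumour cells (red circles), other tumour cells (grey squares) and 63 Col1a2-positive barcodes without keratin UMIs (blue triangles), with 0 UMIs drawn as an open triangle at the limit of 3 UMIs. Ogn, Prelp, Omd, Wisp2 and Mgp are highest in matrix-high cells, and Postn, Col3a1, Bgn, Aspn, Col1a1, Lum and Thy1 are highest in the Col1a2-positive barcodes. Matrix-high cells were chosen on the rule genes and the barcodes on a collagen gene, so those contrasts are in part set by the choice.

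At equal depth the pattern per cell was similar. Free RNA was not measured, and immune barcodes are given as a stand-in. The demand for no keratin UMI may lower their share of tumour cell RNA, so they set no firm background. After thinning to 3000 UMIs, Mgp was seen in 94.1% of matrix-high, 54.9% of other tumour and 18.4% of immune barcodes (at least 1 Ptprc UMI and no keratin UMI), which should lack it. Col3a1 was seen in 60.6%, 29.0% and 4.70%, Ctgf in 75%, 33.0% and 3.07%, and Omd in 4.30%, 0.581% and 0% of the same classes. Areg was seen in 10.7% of matrix-high, 29.0% of other tumour and 8.18% of immune barcodes, so its share in matrix-high cells lay near that of immune barcodes. Krt8 was seen in 66.3% of matrix-high and 80.9% of other tumour cells. Thinning left out 0 matrix-high cells, 68 other tumour cells and 880 of 1369 immune barcodes, whose median was 2209 UMIs. Unthinned, Mgp was seen in 98.6% of matrix-high and 80.5% of other tumour cells.

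The share of tumour cells that were matrix-high is given for each tag with an interval that counts cells and holds no spread between animals. It was 16.6% (11 to 23.5) in U3, 16.25% (10.9 to 22.9) in D4, 14.0% (9.73 to 19.3) in U4, 9.78% (8.40 to 11.3) in U2, 9.58% (5.58 to 15.1) in D0 and 7.62% (6.07 to 9.42) in D1. Tags next to each other in this order had overlapping intervals. The share in U3 was 2.17 times that in D1 (1.43 to 3.30). These tags were picked as the highest and lowest, so an interval above 1 is no sign of a difference. With the rule applied to cells thinned to 3000 UMIs the share in U3 was 1.39 times that in D1. The size of this difference thus depended on depth handling. Each tag is 1 sample, and no difference between tags was tested. Matrix-high cells were 10.6% (9.26 to 12.1) of the untagged tumour cells and 7.91% (5.81 to 10.5) of those with more than 1 tag. Behind the shares per tag were 25 matrix-high cells in U3, 26 in D4, 31 in U4, 164 in U2, 16 in D0 and 78 in D1. Whether treatment, animal or staining moved with these shares cannot be told apart without the arm of each tag.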

How the data were processed

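The authors deposited 1 matrix of raw counts (UMIs) for 31053 genes and 6 antibody tags in 9747 barcodes with 187339115 gene UMIs. Per the submitters' processing notes, Cell Ranger and mm10 were used, and the header of the deposited matrix names software 3.1.0. The sources used here do not give the annotation, read filters or doublet handling. No count model was fitted, because the arm of each tag is unknown and the 2 classes of cells were chosen on expression in the contrast itself.

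Barcodes and tumour cells were chosen by the limits given above. The cells and gene lists were chosen with earlier results of these data known. Tags were assigned with HTODemux (Seurat 5.3.0, R 4.3.3, quantile 0.99, seed 42), which gave 865 of 8784 barcodes more than 1 tag. No barcode was removed for this in the main values. UMIs were summed per class and tag and divided by all gene UMIs (CPM) with numpy 2.4.6, scipy 1.17.1 and pandas 2.3.3 under Python 3.11.15. Ratios have exact conditional binomial 95% intervals, CPM exact Poisson and shares Clopper-Pearson intervals. A count of 0 allows up to 3 counts. Cells were thinned to 3000 UMIs with seed 0. The procedure was tested on simulated data.

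Genes named are the 7 rule genes, the 4 most abundant members of each list, the 15 highest and 10 lowest ratios among called genes with at least 100 UMIs (or as many expected) in matrix-high cells, Acss2 and the gate genes. Members of a list that were called, the genes of the chromosome 13 cluster and its neighbours, Hmga2 and the genes compared with Col1a2-positive barcodes were chosen after their values were seen. Positions are from GENCODE M21 (GRCm38) and promoter windows from RefSeq (GRCm38.p6). The RefSeq table used here had no entry for Ctgf, Wisp2, Mgp and Thbs1.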

Additional observations from a re-analysis of the deposited data

Results flagged for a closer look

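Of 43 values, 6 had 1 tag far from the others (Dixon's 95% limit). The share of matrix-high cells was read in all 6 tags, and the rest in the 5 tags with at least 20 matrix-high cells. Chance alone flags about 1 in 20 of independent values, but these values share cells and are not independent. Tag U3 gave 3 of them: its ratio of matrix genes outside the rule was 1.92, against 2.49 to 2.62 in the other tags, its ratio of G2 and M phase genes was 1.93, against 0.117 to 0.555, and its Tnfrsf21 level in matrix-high cells was 34.6 CPM, against 13.5 to 18.2 CPM. U3 held 25 matrix-high cells. Ogn in matrix-high cells was 369 CPM in D1, against 546 to 588 CPM in the other tags. Col1a1 in matrix-high cells was 374 CPM in U4, against 49.2 to 137 CPM. The level of 2010005H15Rik in matrix-high cells was 2.77 CPM in D1, against 0 to 0.788 CPM.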

How the results depend on the processing

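Each count or ratio was recomputed with cells of each tag left out in turn and under other settings. The count of genes called higher (165) was within 1.5 times of its value in 20 of 21 other settings, and 331 with the top 5% of cells, where 2 tags could be compared. Without each tag it ran from 164 to 197. The count called lower (202) was within 1.5 times in 17 of 21 other settings. It was 538 with the top 5%, 514 with the top 10% taken within each tag, 375 with Postn out of the rule and 322 without cells holding UMIs of Pdgfra, Pi16, Clec3b or Cd34, and it ran from 179 to 421 without each tag. The value without U3 was 421, of which 197 were among the 202. Fewer tags had to share a direction where tags were left out or fell under 20 cells. The ratio of matrix genes outside the rule (2.40) was 2.23 to 2.54 in all 19 other settings and 2.35 to 2.42 without each tag. The G2 and M phase ratio (0.437) was 0.290 to 0.554 in 19 other settings and 0.388 to 0.538 without each tag. The share of matrix-high cells in U3 over that in D1, picked as the highest and lowest tags, was 2.17 (1.43 to 3.30). It was 1.39 with the rule applied to thinned counts (the cause was not tested), and 1.75 to 2.93 in the other 15. An alternative chosen after seeing the data, without cells holding any Col1a2 UMI, gave 158 genes higher and 196 lower. Scaling by the median ratio gave 197 higher and 173 lower. Neither summed ratio nor the share ratio crossed 1 in these settings, and single named genes and other lists were not followed through them. Classes were set side by side within tags, without a test. Tags with 16 to 31 matrix-high cells limit what can be read per tag.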

Other observations

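Genes described here were chosen after their values were seen, and all were called by the rule of the report, with the same direction in 5 of 5 tags. They were picked from the called genes and stand for no group: of the 11 genes in the acute phase and chemokine list 1 was called. Cp (ceruloplasmin, a copper-carrying ferroxidase) was 1258 CPM in matrix-high and 559 CPM in other tumour cells, and Clu (clusterin) was 360 and 164 CPM. The complement proteases C1s1 and C1ra were 115 and 41.5 CPM and 61.7 and 23.3 CPM, and Lbp, which binds lipopolysaccharide, was 97.2 and 32.3 CPM. Of receptor genes for cytokines of the interleukin 6 family, Lifr was 74.4 and 19.6 CPM and Osmr 92.4 and 41.5 CPM. Cst3 (cystatin C) was 3450 and 1392 CPM, the cytokine gene Il33 797 and 381 CPM, and Hsd11b1, whose product makes active glucocorticoid, 384 and 122 CPM.

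Genes lower in matrix-high cells included Itga6, an integrin that binds laminin, with 72.7 CPM in matrix-high and 191 CPM in other tumour cells. Pthlh (parathyroid hormone-like hormone) was 18.1 and 59.9 CPM, and Il1rl1, the receptor of interleukin 33, 76.3 and 189 CPM. Il33 and its receptor gene thus lay in opposite directions.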
